A study of Bos taurus with 8 samples.

Results

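The cytosolic ribosomal protein (RP) genes encode the protein part of the ribosome, and their transcripts were followed in single cells of cattle muscle and of cultures grown from it. The members were taken by gene symbol: RPL, RPS or RPLP followed by digits, with an optional final letter, or RPSA, with RPS6 kinases and pseudogene names left out. This gave 79 of the 21880 genes in the deposited matrices, with 78 symbols, because RPS29 stands for 2 annotated genes. Of the 79, 46 belong to the large subunit (3 of them to the stalk) and 33 to the small subunit. All cells came from the semitendinosus muscle of 10 Belgian Blue cattle, calves and adults, digested with collagenase. Cells of all donors were mixed at each of 5 timepoints into 1 Chromium 3′ library, and the donor of each cell was called from its genotype. Timepoint 1 was muscle just after isolation (10 donors). Timepoint 2 was passage (P) 0, after 72 h on fibronectin in serum-free growth medium (9 donors, without donor 3). Timepoints 3, 4 and 5 were P2, P5 and P8 in the same medium, when donors 5, 6 and 10 supplied sorted satellite cell (SC) cultures on laminin-521, donors 4, 7 and 8 supplied sorted fibro-adipogenic progenitor (FAP) cultures on collagen I, and donors 1, 2 and 9 supplied unsorted cultures on fibronectin. A library and its timepoint cannot be told apart, and donors within a library are the replicates. Timepoints 2, 3 and 4 have 2 run records each with 1 matrix, which was taken to hold both runs.

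The ribosome reads messenger RNA on its small subunit and joins amino acids on its large subunit, and each subunit holds a fixed set of proteins around its ribosomal RNA. Transcripts of RP genes start with a terminal oligopyrimidine tract, through which the mTOR pathway sets their translation, and they are among the most abundant in dividing cells. SCs, the stem cells of muscle, are small and quiescent in resting tissue, and leaving quiescence comes with growth of the cell and new ribosomes. A few RP genes have roles or paralogs of their own, such as RPL3L, which takes the place of RPL3 in striated muscle fibres, and RPS27L, a paralog of RPS27 and a target of p53.

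Cell types were the authors' annotation: FAPs, SCs, vascular and lymphatic endothelial cells (VECs, LECs), smooth muscle and mesenchymal cells (SMMCs), monocytes and macrophages, lymphocytes and rarer types. The 5 libraries held 36129 cells and between 2772 and 10405 cells each, with a median of 4184 unique molecular identifiers (UMIs) per cell at Timepoint 1 and 18340 to 27239.5 later. The defining markers of each named type were present in it, among them PDGFRA and DCN in FAPs and PAX7 and MYF5 in SCs, except CHRDL2 of the SC list, which was at 0 in SCs of Timepoints 3 and 5. Genes of muscle fibres and blood summed to between 847 and 1403 CPM (counts scaled by the library total) in FAPs of Timepoint 1, with HBB at 0. At Timepoint 2 they summed to at most 2.09 CPM there. The 5 FAP markers summed to 426 to 1951 CPM in SCs of Timepoint 1 and to 1842 to 2918 CPM in SCs of Timepoint 2. Whether these transcripts were free RNA was not tested, and neither was their part in the results below. Only 129 barcodes occurred in more than 1 library.

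RP genes made up 23.86% of all UMIs, 182448437 in number. A median of 75 members was detected per cell at Timepoint 1 and of 76 in each later library. RPS12, RPLP0 and RPS18 had the most UMIs, with 3.69%, 3.05% and 2.81% of the RP total. These are counts of transcript 3′ ends and were not set against transcript length. Of the 79 members, 76 reached a mean of 10 CPM. RPL3L, RPL10L and the second RPS29 gene did not.

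Of the 7 types of muscle with at least 3 donors of enough cells, lymphocytes and SCs gave the largest share of their UMIs to RP genes and VECs and SMMCs the smallest. The RP share of UMIs per donor in lymphocytes ran from 30.3% to 36.0%, with a mean of 33.6% ± 1.90 (SD, n = 10). In SCs it ran from 24.1% to 31.4%, with a mean of 28.2% ± 2.21 (n = 10). In FAPs it lay between 16.1% and 22.2%, with a mean of 18.6% ± 1.79 (n = 10). SCs and FAPs of muscle did not overlap. LECs held 24.0% ± 1.75 (n = 4), macrophages 17.8% ± 2.23 (n = 10) and VECs 16.5% ± 1.93 (n = 10). SMMCs lay lowest of these types, between 14.1% and 17.6% (median 16.1%, n = 10). The order of the upper types held in most donors, since lymphocytes lay above SCs in 9 of 10 donors, SCs above LECs in 4 of 4 and LECs above FAPs in 3 of 4. The lower neighbours did not separate beyond their spread, since FAPs lay above macrophages in 7 of 10 donors, macrophages above VECs in 6 of 10 and VECs above SMMCs in 6 of 10. Of the rarer types, pooled over donors, neutrophils gave 7.13% of UMIs (51 cells, exact binomial interval 6.97% to 7.29%, counting error only), myocytes 14.9% (45 cells), tenocytes 16.2% (23 cells) and glia 16.7% (12 cells). Types were assigned from the same expression values, so these levels are a description and were not tested.

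After 72 h in culture SCs lay between 24.6% and 26.4% with a mean of 25.4% (n = 9), and FAPs held 24.5% ± 0.748 (n = 9), SMMCs 23.7% ± 1.09 (n = 7), LECs 23.5% ± 1.17 (n = 7) and VECs 22.0% ± 0.619 (n = 9), and macrophages were lowest of these 6 types at 16.6% ± 1.43 (n = 7). SCs lay above FAPs in 9 of 9 donors, while SMMCs and LECs could not be ordered (3 of 6 donors).

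**Figure D1:**
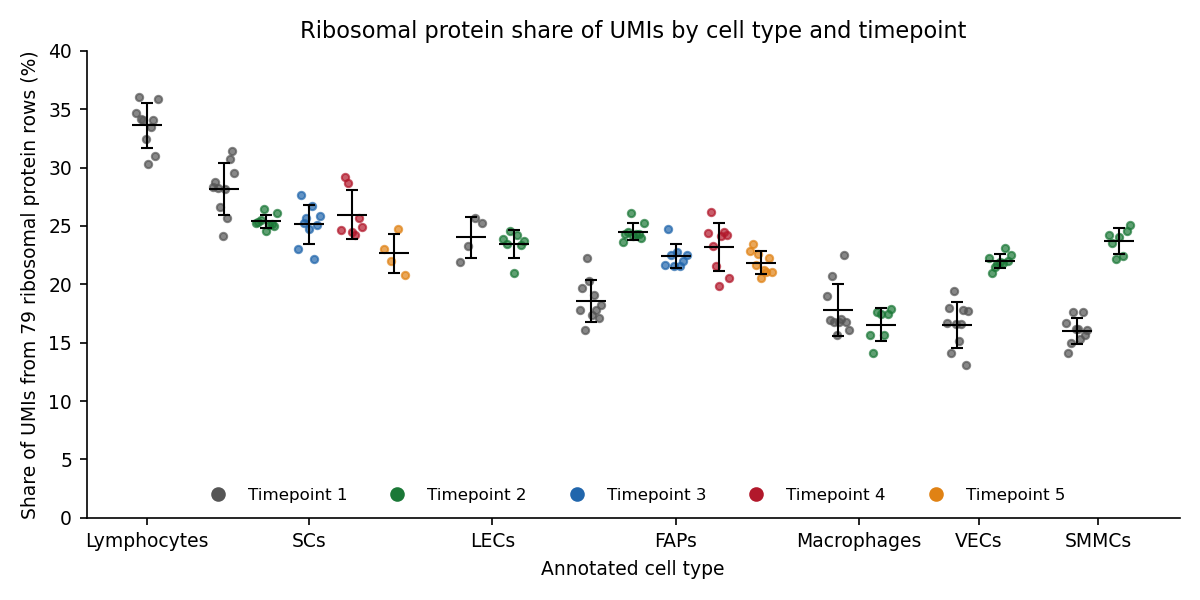
Share of UMIs from RP genes in percent (vertical axis) by cell type and timepoint (horizontal axis), with 1 point per donor and the mean ± SD as bars. In muscle SCs lie at 28.2% and FAPs at 18.6%, and at Timepoint 2 they lie at 25.4% and 24.5%.

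The RP share rose from muscle to P0 in FAPs and VECs. It rose in FAPs by 5.67 ± 1.51 percentage points (SD of the differences within donors), in 9 of 9 donors (exact 2-sided sign-flip permutation test, p = 0.00391, the smallest that 9 donors allow, and 0.0352 after Benjamini-Hochberg adjustment over 18 comparisons). In VECs the rise was 5.19 ± 1.98 points, in 9 of 9 donors (exact permutation, adjusted p = 0.0352), and as a mean over cells it was 8.28 points. With at least 30 cells per sum neither rise passed the adjustment (exact permutation, adjusted p = 0.0547 for each). In FAPs that setting kept the same 9 donors, change and unadjusted p, so that only the adjustment over the comparisons changed, while VECs kept 8 donors. SMMCs were higher by 7.64 ± 2.02 points in 7 of 7 donors. The p of 0.0156 (exact permutation) was the smallest that 7 donors allow, and it did not pass the adjustment (adjusted p = 0.0879). In SCs the share was lower in 8 of 9 donors, with a mean difference of -2.76 ± 2.64 points that did not pass either (exact permutation, adjusted p = 0.0879). Macrophages differed by -0.307 ± 2.17 points (n = 7) and LECs by 0.425 ± 2.52 points (n = 3).

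The changes themselves differed between types in 5 of 15 pairs. The change in FAPs exceeded that in SCs by 8.43 ± 3.55 points, in 9 of 9 donors (exact sign-flip permutation test, adjusted p = 0.0293 over 15 pairs). SCs and VECs differed by -7.96 ± 3.95 points, in 9 of 9 donors (exact permutation, adjusted p = 0.0293). SCs and SMMCs differed by -11.1 ± 2.81 points, in 7 of 7 donors (exact permutation, adjusted p = 0.0469). FAPs and VECs also exceeded macrophages, by 6.01 and 5.81 points in 7 of 7 donors (exact permutation, adjusted p = 0.0469 for each). FAPs and VECs differed from each other by 0.473 ± 1.23 points (exact permutation, adjusted p = 0.332).

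Gene by gene, most RP genes rose in FAPs, SMMCs and VECs, most fell in SCs, and more fell than rose in macrophages and LECs (Timepoint 2 against 1, edgeR's quasi-likelihood test on donor sums, Benjamini-Hochberg over all genes tested). In FAPs 57 of 76 members tested rose and 7 fell, beside 40.6% and 39% of all genes tested. In SMMCs 57 rose and 5 fell (35.5% and 35.9% of all genes), and in VECs 43 rose and 11 fell (35.6% and 37.8%). In SCs 19 rose and 42 fell (36.5% and 37.9% of all genes), in macrophages 17 rose and 37 fell (31.9% and 33.7%) and in LECs 12 rose and 30 fell (21% and 21.2%). Without the filter on low counts the balance turned in SCs, with 34 higher and 22 lower, and in LECs, with 25 higher and 8 lower, while the median of all genes moved to 0.14 and 0.39 there. With the filter, LECs had 18 lower with the donor as a block and 19 higher with library size in place of TMM factors. Macrophages of P0 differed from those of muscle in markers too: the 5 macrophage markers summed to a median of 12096 CPM in muscle and 939 CPM at P0, the 4 neutrophil markers to 61.9 and 3484 CPM (with CXCR2 and CSF3R at 0 at P0) and the FAP markers to 106 and 1979 CPM, and their part in the changes of macrophages was not tested. In VECs the macrophage markers summed to a median of 2180 CPM in muscle and 18.0 CPM at P0 and the 4 glia markers to 516 and 37.3 CPM, while the 5 VEC markers summed to 2684 and 2033 CPM, and the part of these in the changes of VECs was not tested. In SMMCs the 6 SC markers summed to a median of 956 CPM in muscle and 329 CPM at P0, the 4 tenocyte markers to 976 and 98.6 CPM and the 5 SMMC markers to 11438 and 3534 CPM. In FAPs the tenocyte markers summed to 544 and 18.0 CPM and the FAP markers to 35035 and 5221 CPM, in SCs the SC markers to 1767 and 175 CPM, and in LECs the FAP markers to 76.4 and 570 CPM and the 4 LEC markers to 7002 and 1479 CPM. The part of these in the changes of the 4 types was not tested either.

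The median log2 fold change (log2FC) of the members was 0.44 in FAPs, 0.50 in SMMCs and 0.29 in VECs. It was -0.26 in SCs, -0.22 in macrophages and -0.11 in LECs. The median over all genes lay between -0.03 and 0.06 in these 6 comparisons. With library size in place of TMM factors the median of all genes in FAPs moved from 0.03 to -0.08, and 51 members rose and 14 fell. With every donor sum thinned to the smallest one, 39 members rose and 16 fell in FAPs and their median was 0.19. Without the filter on low counts the medians in SCs and LECs turned to 0.09 and 0.29, and those in FAPs and VECs were 0.69 and 0.50. A rise above 2-fold was called for 14 members in FAPs (20.9% of all genes), 13 in SMMCs (15.1%) and 7 in VECs (15.6%). A fall beyond 2-fold was called for 4 members in SCs (18.5% of all genes), 4 in macrophages (20.4%) and 6 in LECs (14.8%).

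The medians of the subunits lay close together within a type. In FAPs the 41 large-subunit genes outside the stalk had a median log2FC of 0.39 and the 32 small-subunit genes of 0.45. In SCs the medians were -0.27 and -0.22, and in VECs 0.33 and 0.26.

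The 3 stalk genes did not move together. RPLP0, RPLP1 and RPLP2 encode the acidic proteins that form the stalk of the large subunit, where elongation factors bind. RPLP0 in FAPs stood at 2231, 2754 and 3305 CPM (lowest, median and highest donor) in muscle and at 5947, 6364 and 7725 CPM at P0. The groups did not overlap, and RPLP0 rose with a log2FC of 1.37 ± 0.10 (SE, adjusted p = 1.99e-12). RPLP2 in FAPs rose from 2250 ± 162 to 4389 ± 144 CPM (SD, n = 10 and 9, log2FC 1.07 ± 0.06). RPLP1 in FAPs fell instead, from 6697 ± 612 to 5085 ± 213 CPM (log2FC -0.29 ± 0.07, adjusted p = 0.00112), and its groups did not overlap, but without the low-count filter the log2FC was -0.0112 and did not pass. The same split held in SCs. There RPLP0 rose from 4425 ± 622 to 6843 ± 419 CPM (log2FC 0.57) and RPLP2 from 3665 ± 437 to 4977 ± 118 CPM (log2FC 0.39), while RPLP1 fell from 8035 ± 754 to 5571 ± 222 CPM (log2FC -0.58). In VECs RPLP0 rose from 1741 ± 309 to 5759 ± 460 CPM (log2FC 1.70), and RPLP1 was at 6062 ± 479 and 6075 ± 384 CPM (log2FC -0.02, adjusted p = 0.770), a sign that turned without the low-count filter (0.19).

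RPSA, the small-subunit protein at the exit of messenger RNA that is also known as the laminin receptor, rose in all 6 types. In FAPs its lowest, median and highest donors were 1710, 2239 and 2620 CPM in muscle and 4829, 5024 and 5365 CPM at P0, with a log2FC of 1.32 ± 0.09. In VECs it rose from 1531 ± 262 to 5082 ± 225 CPM (log2FC 1.70 ± 0.09), and in SCs from 3229 ± 668 to 5138 ± 173 CPM (log2FC 0.61 ± 0.10). The P0 donors lay above every muscle donor in each of these 3 types.

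RPS2 and RPS16 were other small-subunit genes that stood well above the members' median. RPS2, which lies at the entrance of the messenger RNA channel, rose from 2349 ± 184 to 7183 ± 369 CPM in VECs (log2FC 1.58) and from 2708 ± 419 to 6007 ± 357 CPM in FAPs (log2FC 1.25). RPS16 in SCs rose from 1126 ± 89.0 to 1738 ± 80.7 CPM (log2FC 0.58).

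RPL8, RPL28 and RPL7A were among the large-subunit genes outside the stalk that stood well above the median. RPL8, which lies near the peptidyl transferase centre, rose in FAPs from 1808, 2120 and 2391 CPM to 4791, 5103 and 5446 CPM (log2FC 1.39 ± 0.07, adjusted p = 1.36e-14). RPL28 in SCs rose from 2136 ± 347 to 3502 ± 154 CPM (log2FC 0.66). RPL7A in VECs rose from 1872 ± 205 to 4169 ± 130 CPM (log2FC 1.12).

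RPS15A and RPL26 stood furthest below the members' median in these 3 types. RPS15A, a small-subunit protein, stood at 1472, 1754 and 2300 CPM in FAPs of muscle (lowest, median and highest donor) and at 934, 976 and 1014 CPM at P0. It fell there with a log2FC of -0.74 ± 0.08 (adjusted p = 1.75e-08). In SCs RPS15A fell from 2363, 2969 and 3493 CPM to 992, 1024 and 1092 CPM, with a log2FC of -1.56 ± 0.07 (adjusted p = 7.22e-16). In neither type did the donors of the 2 timepoints overlap.

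RPL26, which sits at the exit of the peptide tunnel and is known to bind p53 messenger RNA, fell in SCs from 3739 ± 374 to 1417 ± 90.9 CPM (log2FC -1.45), in VECs from 1982 ± 359 to 1106 ± 87.2 CPM (log2FC -0.88) and in FAPs from 2130 ± 292 to 1380 ± 78.6 CPM (log2FC -0.52). RPL17, another protein at the tunnel exit, fell in VECs from 723 ± 99.7 to 539 ± 32.5 CPM (log2FC -0.46). RPS27 and RPS25, small-subunit proteins, the latter known for its role at viral internal entry sites, fell in SCs from 5551 ± 388 to 2599 ± 115 CPM (log2FC -1.15) and from 3443 ± 246 to 1762 ± 71.3 CPM (log2FC -1.02). RPS19, the gene most often mutated in Diamond-Blackfan anaemia, fell in SCs from 5029 ± 419 to 2618 ± 82.7 CPM (adjusted p = 1.47e-13) and stood at 3047 ± 438 and 2575 ± 88.7 CPM in FAPs (log2FC -0.14, adjusted p = 0.161).

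RPS6, the substrate of S6 kinase, rose in FAPs from 2181 ± 344 to 2696 ± 86.7 CPM (log2FC 0.41) and fell in SCs from 3687 ± 493 to 2796 ± 89.3 CPM (log2FC -0.45). Neither call held throughout, with 0.15 in FAPs at equal depth and -0.0827 in SCs without the low-count filter. RPS27A, made as a fusion with ubiquitin, rose in FAPs from 3269 ± 228 to 5243 ± 221 CPM (log2FC 0.79) and was at 5019 ± 505 and 5480 ± 186 CPM in SCs (log2FC 0.07, adjusted p = 0.263), where DESeq2 (0.17) and the test without the filter (0.44) called it higher. RPS4X, the X-linked form of RPS4, fell in SCs from 2696 ± 229 to 1628 ± 58.2 CPM (log2FC -0.78). In FAPs and VECs RPS4X did not pass the test (log2FC -0.19 and -0.08), and both signs turned without the low-count filter (0.0846 and 0.13). In FAPs it did fall with the donor as a block (-0.23), without TMM factors (-0.30) and at equal depth (-0.47). RPS27L rose in FAPs, where 7 of 9 donors were higher at P0 (log2FC 0.49, adjusted p = 1.90e-05), and did not pass the test in SCs (log2FC 0.03, and -0.0336 at equal depth) or VECs (log2FC 0.14), but was called higher in both without the low-count filter (0.39 and 0.35).

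**Figure D2:**
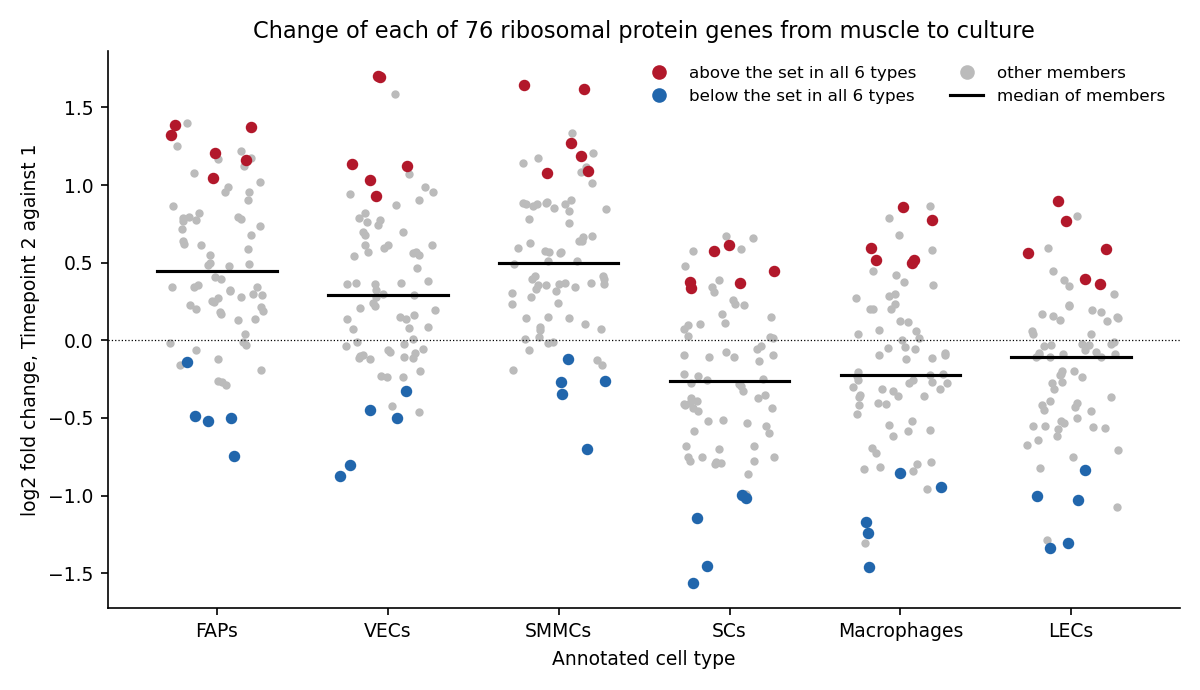
Log2 fold change from Timepoint 1 to Timepoint 2 (vertical axis) of the 76 RP genes tested in each of 6 cell types (horizontal axis), with 1 point per gene and a black bar at their median. The 6 genes in red lie above and the 5 genes in blue below the set in every type, while the median moves from -0.26 in SCs to 0.50 in SMMCs.

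To separate a single gene from the set, the same test was run with each donor's RP total in place of its library size, so that a log2FC is relative to the members. Relative values must fall on both sides of 0 by construction. A member departed when its adjusted p was under 0.05 and its relative log2FC lay beyond 0.5 in either direction. In FAPs 15 members departed upward and 12 downward (21.6% and 47.3% of all genes met the same limits), in SCs 15 and 15 (38.8% and 24.2%) and in VECs 13 and 11 (19.8% and 43%). In SMMCs 13 departed upward and 11 downward (14.9% and 48.8% of all genes), in macrophages 14 and 13 (33.8% and 26.5%) and in LECs 11 and 10 (25.5% and 16.5%).

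RPSA, RPLP0, RPL8, RPL7A, RPL3 and RPS18 departed upward in all 6 types, and the relative value was up in 44 of 44 pairs of donor and type. The relative log2FC ran from 0.85 to 1.36 for RPSA, from 0.82 to 1.36 for RPLP0 and from 0.70 to 0.91 for RPL8. It ran from 0.56 to 0.79 for RPL7A, from 0.57 to 0.72 for RPL3, whose protein lies at the peptidyl transferase centre, and from 0.54 to 0.70 for RPS18, a protein of the small subunit's head. RPS15A, RPL26, RPS27, RPS25 and RPS19 departed downward in all 6 types, in 44 of 44 pairs. Their relative log2FC ran from -1.31 to -1.13 for RPS15A, from -1.21 to -0.76 for RPL26, from -1.05 to -0.66 for RPS27, from -0.97 to -0.74 for RPS25 and from -0.79 to -0.61 for RPS19. The 6 comparisons share libraries and donors, so these counts describe them and are not separate evidence. Genes departing in all 6 types were not counted over all genes.

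The remaining departures were less general. RPS20, RPL12 and RPS2 departed upward in 5 types, RPL28, RPS16 and RPS12 among others in 4, and RPLP2, RPL4 and RPS10 in 3. In 1 type each, RPL24 and RPL13 did so in macrophages and RPL6 in SMMCs. Downward, RPL17, RPL37, RPL37A and RPS28 departed in 5 types and RPS4X in 3. RPLP1 departed in FAPs and SMMCs, RPL22 in SCs and LECs and RPL36A in SCs and SMMCs. In 1 type each, RPL10 departed in FAPs, RPS26, RPS3A and RPL7 in SCs, RPL32 and RPL34 in VECs, and RPL39, RPS7, RPS3 and RPL18 in macrophages. In all, 20 members departed upward and 24 downward in at least 1 type, 32 in none and 0 in both directions. These counts over types were not made for all genes. With the donor as a block, RPL12 (0.49) and RPL7 (-0.49) in SCs and RPL36A (-0.47) and RPL17 (-0.44) in SMMCs no longer departed. RPL4 in macrophages had a relative log2FC of 1.05.

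RPL39, a small basic protein of the peptide tunnel, fell in macrophages. It stood at 2394, 2791 and 3902 CPM in muscle and at 1132, 1243 and 1458 CPM at P0 (log2FC -1.31 ± 0.11, adjusted p = 3.81e-11). In FAPs it was at 1466 ± 149 and 1346 ± 51.8 CPM (log2FC -0.01, adjusted p = 0.869). Muscle lymphocytes held RPL39 at 2938 ± 234 CPM (n = 10), but their RP share as a whole was 33.6%, against 17.8% in muscle macrophages.

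A position was computed for each member as its log2 CPM minus the median of the 76 members in the same donor sum. At Timepoint 1 the positions of a member differed between the 6 types by a median of 0.41 (highest minus lowest type), and at Timepoint 2 by 0.22. The mean shift between the timepoints had a median size of 0.37 and reached 0.98 for RPSA and -1.27 for RPS15A. For 17 members the 6 types of P0 all lay above the 6 types of muscle, and for 25 members all lay below. Positions are relative to the members' own median, so shifts must fall on both sides, and this count was not made over all genes. RPS15A lay between -0.41 and -0.19 in the types of muscle, between -1.67 and -1.44 at P0 and between -1.80 and -1.62 in FAPs and SCs of P2 to P8. RPLP0 lay between -0.18 and 0.28 in muscle, between 0.98 and 1.10 at P0 and between 1.39 and 1.58 later. RPSA went from between -0.39 and -0.10 to between 0.57 and 0.93 and then lay between 0.80 and 1.01. The position of each of these 3 genes at every passage lay on the side to which P0 had moved it. Not every member kept its shift. RPL10 lay between 0.64 and 1.13 in muscle, between 0.17 and 0.52 at P0 and between 0.71 and 0.88 later. Depth moved with the contrast of muscle and P0: the FAPs of a donor summed to between 270458 and 2268755 UMIs in muscle and between 10321593 and 23061306 UMIs at P0. The part of depth in the departures was not tested.

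**Figure D3:**
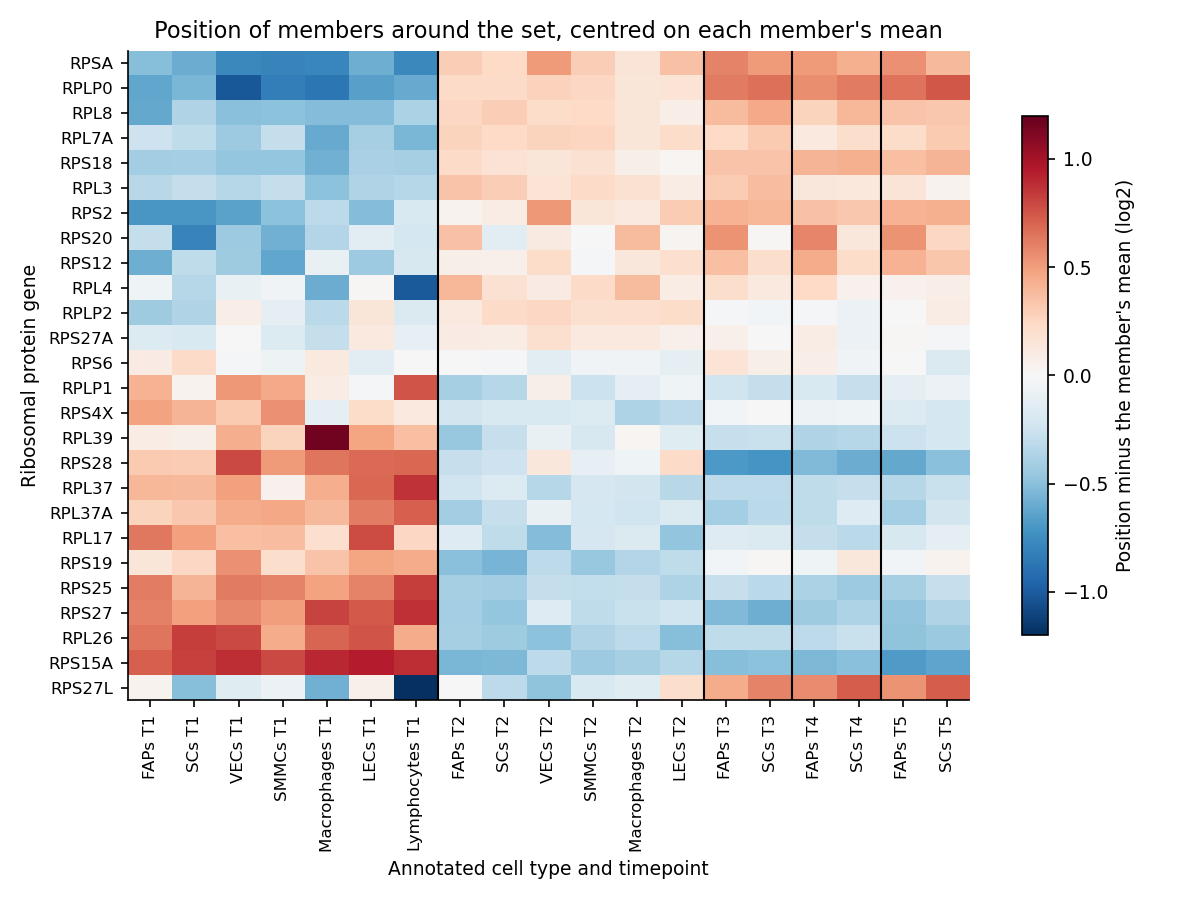
Position of selected RP genes (vertical axis) in 19 groups of cell type and timepoint (horizontal axis), drawn in colour as log2 CPM relative to the median RP gene and minus each gene's own mean over the groups. The genes shown include all that departed between Timepoint 1 and Timepoint 2 in every type tested. That groups of Timepoint 1 stand apart from the cultured groups in most of them follows in part from this choice. RPS15A has a range of 1.62 and RPLP0 of 1.76.

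Over all 19 groups with at least 3 donors the widest range of position belonged to RPS27L (2.22), and the next included RPLP0 (1.76), RPS15A (1.62), RPL39 (1.61), RPS28 (1.49), RPS27 (1.46), RPS29 (1.45), RPL4 (1.41) and RPSA (1.39). RPS28 stepped down in stages: it lay between 0.93 and 1.41 in muscle, between 0.34 and 0.85 at P0 and between -0.08 and 0.12 in FAPs and SCs from P2 on.

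With passage the RP share of a culture's 3 donors could not pass the exact sign-flip test, whose smallest p with 3 donors is 0.25. From P0 to P2 the share was lower in FAPs of FAP cultures by 2.08 points on average (24.3% to 22.3%, 3 of 3 donors). It differed by -1.19 ± 1.37 points in FAPs of unsorted cultures, with 1 of 3 donors higher (by 0.392 points), and by -1.98 points without donor 2. In SCs of SC cultures it differed by -0.303 points (25.7% to 25.4%), and by -0.540 to -0.0532 points without 1 donor. From P2 to P5 it was higher in FAPs of FAP cultures by 1.71 points and of unsorted cultures by 2.12 points, each in 3 of 3 donors, and lower in SCs of SC cultures in 3 of 3 (-0.874 points). With 1 donor left out the rises ran from 1.09 to 2.20 points in FAP cultures and from 1.82 to 2.46 points in unsorted cultures. From P5 to P8 it was lower in all donors compared: by a mean of 2.66 points in FAP cultures, 2.05 points in unsorted cultures and 3.14 points in SCs of the 2 donors left. In FAPs of all cultures SMMC markers summed to a median of 476 CPM at P5 and 804 CPM at P8, and FAP markers to 32700 and 16886 CPM. The part of these in the change was not tested. A timepoint is also a library here.

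**Figure D4:**
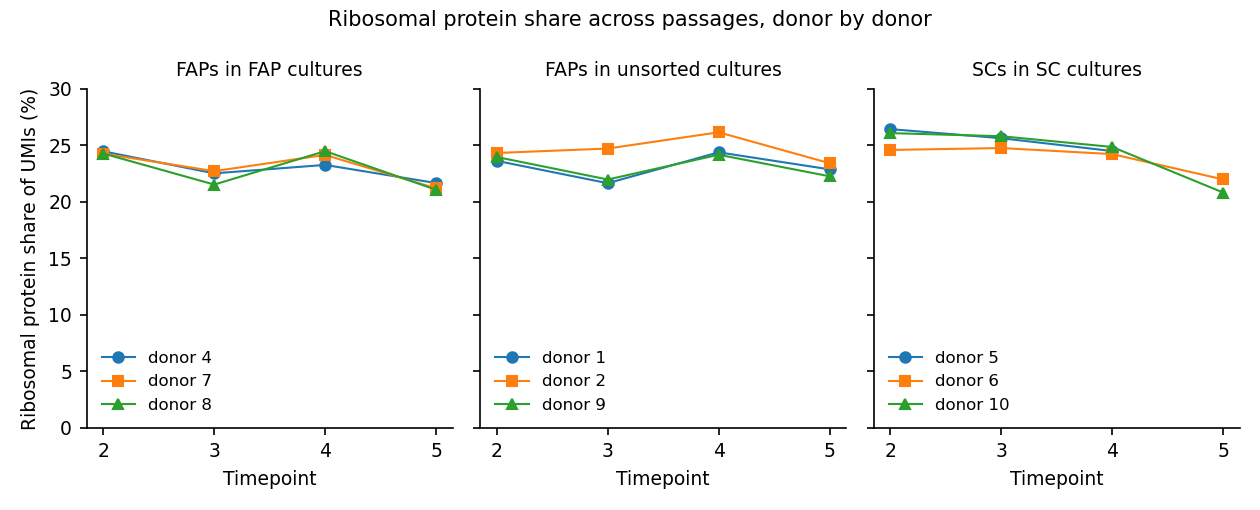
Share of UMIs from RP genes in percent (vertical axis) from Timepoint 2 to Timepoint 5 (horizontal axis), with 1 line per donor, for FAPs in FAP cultures, FAPs in unsorted cultures and SCs in SC cultures. FAPs are on average higher at Timepoint 4 than at Timepoints 3 and 5, and SCs of SC cultures lie at 25.7% at Timepoint 2 and at 21.4% in the donors left at Timepoint 5.

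From P0 to P2, 2 members rose and 8 fell of 77 tested in SCs of SC cultures (11.1% and 9.06% of all genes). In FAPs 5 rose and 17 fell in FAP cultures (28.4% and 25.4%), and 13 rose and 12 fell in unsorted cultures (32% and 29.5%). With library size in place of TMM factors the counts were 3 and 28 in FAP cultures and 7 and 26 in unsorted cultures. FAP markers in SCs summed to a median of 2648 CPM at P0 and 8566 CPM at P2, and SMMC markers to 76.8 and 641 CPM, over SCs of all cultures. In FAPs of all cultures SMMC markers summed to a median of 54.8 CPM at P0 and 649 CPM at P2 and FAP markers to 5221 and 26834 CPM. The part of these in the changes of SCs and FAPs was not tested. RPS29, a zinc-binding protein of the small subunit's head, fell in all 3. Its main gene stood at 3415, 3831 and 4211 CPM in SCs of P0 and at 2300, 2614 and 2751 CPM at P2 (log2FC -0.60 ± 0.11, adjusted p = 0.0100). In FAPs of FAP cultures it went from 3572 ± 75.1 to 2202 ± 186 CPM (log2FC -0.58) and in those of unsorted cultures from 3587 ± 89.7 to 2294 ± 202 CPM (log2FC -0.46). RPS28 fell alongside, from 4243 ± 202 to 2950 ± 194 CPM in SCs (log2FC -0.54) and from 3942 ± 51.7 to 2419 ± 117 CPM in FAPs of FAP cultures (log2FC -0.59). RPS29 departed downward from the set in all 3 comparisons and RPS28 in these 2 (share of all genes departing downward 6.47% in SCs, 18.2% and 23.2% in FAPs). With 1 donor left out the downward departures numbered 1 in SCs without donor 6, 1 in FAP cultures without donor 8, and 0 without donor 1 and 1 without donor 2 in unsorted cultures.

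RPS19, lower after 72 h, rose again by P2 in SCs, from 2471, 2622 and 2624 CPM to 3592, 3624 and 3692 CPM (log2FC 0.49 ± 0.07, adjusted p = 0.00404), and departed upward (9.23% of all genes). RPL10, a late-joining protein of the large subunit, rose in FAPs of unsorted cultures from 3892 ± 183 to 5233 ± 945 CPM (log2FC 0.62) and of FAP cultures from 3619 ± 386 to 4819 ± 822 CPM (log2FC 0.53), and departed upward in both (22.8% and 25.4% of all genes). The upward departures numbered 0 in FAP cultures without donor 7 or 8, and 0 in unsorted cultures without donor 2 or without TMM factors. The second RPS29 gene departed downward in FAPs of both cultures at levels of 2.44 and 2.68 CPM that went to 1.17 and 1.23 CPM. These calls rest on 3 donors. With 1 donor left out, 0 to 3 members were called lower in SCs (0 without donor 5), 2 to 9 in FAPs of FAP cultures (2 without donor 7) and 2 to 20 in those of unsorted cultures (2 without donor 9 and 20 without donor 2). The members called higher then numbered 0 to 3 in FAP cultures (0 without donor 7) and 5 to 12 in unsorted cultures (5 without donor 9).

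Of the members called from P0 to P2 in SCs of SC cultures, RPS27L changed most. It stood there at 299, 314 and 332 CPM at P0 and at 703, 752 and 804 CPM at P2. Every P2 donor lay above every P0 donor, and RPS27L rose with a log2FC of 1.24 ± 0.09 (adjusted p = 0.000701) and a relative log2FC of 1.27 ± 0.08. In FAPs it did not pass the test: it was at 358 ± 21.6 and 386 ± 70.3 CPM in FAP cultures (log2FC 0.22) and at 392 ± 41.1 and 380 ± 24.0 CPM in unsorted cultures (log2FC 0.14). The log2FC uses TMM factors and the CPM values do not, so their directions differ in the latter. At P2 the donors of SC cultures also held more RPS27L in cells annotated as FAPs, a comparison that was not tested, with 667 and 635 CPM in donors 5 and 10 against 336 to 467 CPM in FAP cultures and 352 to 394 CPM in unsorted cultures. Donor and culture cannot be told apart from P2 on, and at P0 the SCs of the same donors lay at 299 to 332 CPM among 297 to 355 CPM over all 9. Fibre and blood genes summed to at most 2.19 CPM in SCs of P0 and to between 12.2 and 980 CPM in SCs of P2, and their part in the rise was not tested.

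**Figure D5:**
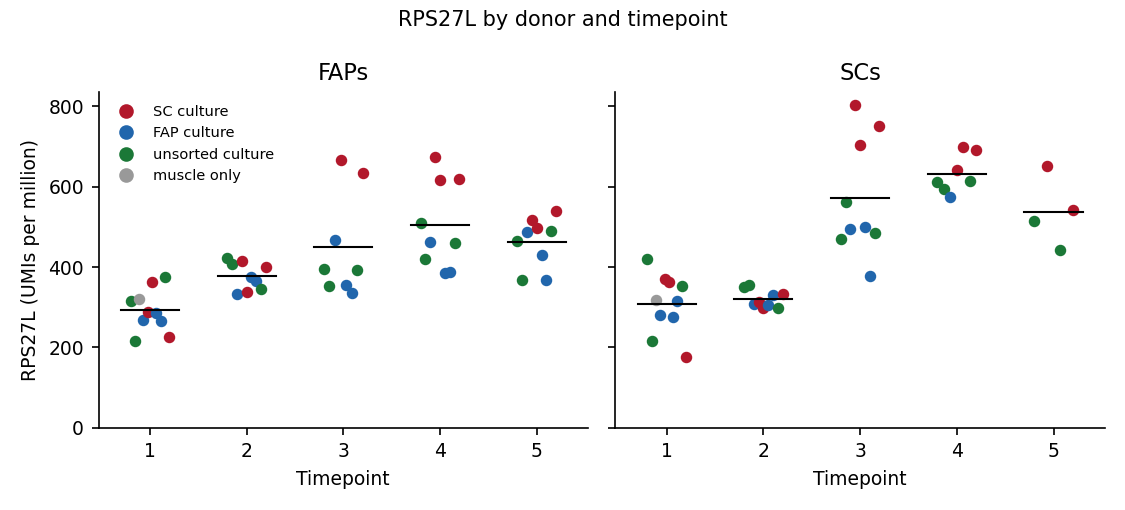
RPS27L in CPM (vertical axis) by timepoint (horizontal axis) in FAPs and SCs, with 1 point per donor coloured by the culture that the donor supplied from Timepoint 3 on, and a bar at the mean. At Timepoint 3 the SC culture donors lie at 703 to 804 CPM in SCs and all other donors at 379 to 562 CPM.

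Sorted SC and FAP cultures were set against each other at P2 over all their cells, a contrast that does not use the annotation. The RP share was 25.4% ± 0.550 in the 3 SC cultures and 22.4% ± 0.768 in the 3 FAP cultures (difference 2.93 points, exact permutation test p = 0.1, the smallest possible). At P5 and P8 the difference was -0.202 and 0.0901 points (exact permutation p = 0.7 and 1). Of the cells of SC cultures, those annotated as FAPs numbered 593 of 1041 in donor 5, 31 of 1522 in donor 6 and 70 of 1147 in donor 10 at P5, and 231 of 239, 542 of 567 and 172 of 208 at P8. Their part in the difference was not tested. Of 77 members 2 were higher and 1 lower in SC cultures at P2 (13.8% and 19.6% of all genes). RPS27L was higher, at 702, 750 and 802 CPM against 337, 365 and 469 CPM (log2FC 0.78 ± 0.13, adjusted p = 0.00665), and was the only member to depart from the set (relative log2FC 0.74, 10.5% of all genes departing upward). RPL3 was higher, at 2808 ± 92.7 against 1938 ± 177 CPM (log2FC 0.36), and RPS20 lower, at 5336 ± 575 against 6257 ± 293 CPM (log2FC -0.40). With library size in place of TMM factors 19 members were higher and 0 lower. The count of members higher was 1 without donor 4, 5, 6, 8 or 10, and that of members lower was 0 without donor 5, 6 or 7 and 2 without donor 4.

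At later passages few members were called, and in FAPs from P2 to P5 and in FAP cultures from P5 to P8 many more were called with the donor as a block. The shares of all genes given for these passages belong to the edgeR fit without the block. None is given for the block or DESeq2 counts, or for the counts of members above 0. From P2 to P5, RPS9 was the only member called higher in FAPs of FAP cultures (1.54% of all genes higher, 0.899% lower). It rose from 3599 to 4475 CPM (log2FC 0.42), and 76 of 77 members were above 0 with a median of 0.21, beside 0.0049 over all genes. With the donor as a replicate block 30 members were higher and DESeq2 called 24. The edgeR count without the block was 0 with library size in place of TMM factors, without the low-count filter, and without donor 4, 7 or 8. In FAPs of unsorted cultures RPS21, RPS28 and RPS27L rose (5.21% of all genes higher), and the block called 52 and DESeq2 17. There 77 of 77 were above 0 with a median of 0.23, beside 0.011 over all genes. The edgeR count without the block was 0 without donor 1 or 9 and 18 without donor 2. In SCs of SC cultures RPL14 and RPL3 fell (2.56% of all genes higher and 4.77% lower), and the count was 0 at equal depth and without donor 5, 6 or 10.

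From P5 to P8 RPS9, RPL37A and RPS3A fell in FAPs of FAP cultures (0.39% of all genes lower). There 0 of 77 members were above 0 and their median was -0.29, beside -0.0019 over all genes. With the donor block 57 members fell, and 46 fell by DESeq2. The edgeR calls without the block did not remain with library size in place of TMM factors or without donor 4, 7 or 8 (count 0 in each). No member, a count of 0, was called in FAPs of unsorted cultures by edgeR (0% of all genes higher, 0.0637% lower), where 44 had an unadjusted p under 0.05, 4 fell with the block and 10 fell by DESeq2. Shares of all genes at an unadjusted p, with the block or by DESeq2 are not given here or below. In SCs of SC cultures edgeR also called 0 (0.0612% and 0.114% of all genes), with 47 at an unadjusted p under 0.05, 8 lower with the block and 29 lower and 1 higher by DESeq2. In FAPs from P2 to P8 edgeR and DESeq2 called 0 in both cultures (0.0271% and 0.659% of all genes higher, 0.00902% and 0.316% lower), with 0 members at an unadjusted p under 0.05 in edgeR, and the block called 4 lower in FAP cultures.

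In SCs of SC cultures 9 of 78 members fell from P2 to P8 (2.21% of all genes lower, 1.46% higher), all but RPS4X and RPS6 of the large subunit: RPL3, RPL5, RPL10A, RPL6, RPL13, RPL14 and RPL8. RPL3 went from 2712, 2834 and 2898 CPM to 1611 and 1644 CPM (log2FC -0.83 ± 0.11, adjusted p = 0.0185) and was the only one to depart from the set (relative log2FC -0.53, 1.75% of all genes departing downward). RPL5, part of the 5S particle that binds MDM2, fell too (log2FC -0.79 ± 0.13, adjusted p = 0.0338). P8 holds 61 SCs of 2 donors of these cultures. DESeq2 called 27 members lower. Without donor 5 the count was 0, while leaving out donor 6 or 10 leaves 1 donor at P8, too few to judge a count. With the donor as a block RPL3 no longer departed.

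Within a type the RP share differed by cell cycle phase as the authors called it. Phases were called from the expression of S and G2/M genes in the same cells, with no other measure of proliferation, and a share falls when other transcripts rise. In FAPs of P0 cells called G1 held 26.2% ± 0.724 and cells called S or G2/M 24.2% ± 0.797, and the share was lower in S or G2/M in 9 of 9 donors (difference -2.03 ± 0.760 points, exact sign-flip permutation test p = 0.00391, the smallest possible). In SCs of P2 the values were 25.9% ± 1.46 and 24.9% ± 1.43, lower in 8 of 8 donors (difference -1.03 ± 0.437 points, exact permutation p = 0.00781, the smallest possible). Positions moved little with phase, since 75 of 76 members stayed within 0.2 in each of the 2 types. The member beyond it in FAPs was RPS27L, at a mean of 579 CPM in G1 and 340 CPM in S or G2/M, with a position difference of -0.66 (S or G2/M minus G1) and a lower position in 9 of 9 donors. In SCs of P2 RPS27L lay the other way, at 579 CPM in G1 and 631 CPM in S or G2/M, with a position difference of 0.18 and a higher position in 8 of 8 donors. The member just beyond it in SCs was RPL4, with 801 and 890 CPM, a position difference of 0.21 and a higher position in S or G2/M in 8 of 8 donors. In FAPs RPL4 moved nearly as far, from 976 to 1038 CPM, with a position difference of 0.20 and a higher position in 9 of 9 donors.

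The paralogs with restricted use were rare. RPL3L reached 132 CPM in muscle myocytes, from 22 UMIs over 45 cells, and 12.5 CPM in muscle SCs, from 35 UMIs. It stood at 2.20 CPM in muscle FAPs and at 0.207 CPM in SCs of P0. Fibre and blood genes summed to a median of 604 CPM in muscle SCs and 1168 CPM in muscle FAPs. Their part in the level of RPL3L was not tested. RPL10L, a testis paralog of RPL10, gave 3, 5 and 1 UMIs in FAPs of P0, P2 and P5 and 2 UMIs in SCs of P5. In muscle SCs it was at 0 UMIs, which allows up to 1.07 CPM (3 counts, counting error only).

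Other genes of protein synthesis were read beside the members from P0 against muscle. All their counts stand beside the shares of all genes called in the same comparisons, 40.6% higher and 39% lower in FAPs, 36.5% and 37.9% in SCs and 35.6% and 37.8% in VECs. Of 21 translation genes with a terminal oligopyrimidine tract 16 rose and 2 fell in FAPs, with a median log2FC of 0.50 close to that of the RP genes. NPM1, a nucleolar chaperone, rose most there (2.54) and EIF3L next (1.36), and TPT1 (-0.52) and EIF3E (-0.43), a subunit of initiation factor 3, fell. In SCs 5 of the 21 rose and 12 fell (median -0.35), with TPT1 falling from 10901 to 4956 CPM (log2FC -1.19) and EIF3E with a log2FC of -0.96, beside rises of EIF3L (0.81) and NPM1 (0.53). In VECs 11 rose and 5 fell (median 0.26), led by NPM1 (1.13) and NACA (1.00) and by EEF1A1 (-0.41) and NAP1L1 (-0.39).

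Most ribosome assembly genes rose in all 3 types. In SCs 32 of 39 tested rose and 1 fell (median 0.97), in FAPs 45 of 48 rose and 2 fell (median 1.32) and in VECs 31 of 39 rose and 1 fell (median 1.19). NCL, the nucleolar protein nucleolin, rose in FAPs from 286 to 1733 CPM (log2FC 2.72). BOP1 (2.09) and DKC1 (1.92) led in SCs and BYSL (2.26) and RRS1 (1.92) in VECs. UBTF, the factor of ribosomal RNA transcription, fell in all 3 (-0.46, -0.55 and -0.74 in FAPs, SCs and VECs), as did RRN3 in FAPs (-0.85). BRIX1 in SCs (-0.30) and TAF1D in VECs (-0.16) did not pass the test.

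Mitochondrial ribosomal protein genes, which build a separate ribosome, rose in 73 of 75 cases and fell in 1 in FAPs (median 1.16), in 52 and 4 of 74 in SCs (median 0.63) and in 56 and 2 of 73 in VECs (median 0.81). MRPL12 (2.80) and MRPS6 (2.30) led in FAPs, MRPS6 (3.11) and MRPS30 (1.84) in SCs and MRPL15 (3.30) and MRPS6 (2.14) in VECs. The largest falls were MRPS34 in FAPs (-0.53), MRPL2 (-0.54) and MRPL49 (-0.48) in SCs and MRPS36 (-0.73) and MRPS34 (-0.40) in VECs.

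Of 9 RP paralogs and fusions outside the rule 9 rose in FAPs, 5 rose and 2 fell in SCs, and 7 rose and 1 fell in VECs. RPS4Y1 (3.32, 2.36 and 1.56 in FAPs, SCs and VECs) and RSL1D1 (2.52, 1.82 and 1.79) rose most. The gene annotated as RPS4Y1 carries the name of a Y-linked copy of RPS4, but it had counts in FAPs of every donor, of both sexes (24.2 CPM or more in muscle), and reads may be shared among RPS4 copies, so its values are uncertain. FAU, the ubiquitin-like fusion that yields RPS30, fell in SCs (-0.45) and VECs (-0.26). Among the regulators tested, 6 of 11 rose and 3 fell in FAPs, 2 and 4 of 9 in SCs and 3 and 2 of 9 in VECs. EIF4EBP1, a repressor of cap-dependent translation, rose in all 3 (1.16, 1.59 and 2.29). Falls were led by EIF4EBP2 (-2.24) and RHEB (-1.12) in FAPs, RHEB (-1.45) and CDKN1A (-1.42) in SCs and MYC (-2.04) and RPS6KB1 (-0.44) in VECs.

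Outside the members, the gene whose level followed the mean RP gene most closely over 159 donor sums was RACK1, a scaffold protein of the small subunit (Pearson r = 0.86 among 7934 genes, a description since the sums share libraries, donors and a fixed total). ENSBTAG00000025385 (0.80), NPAS2 (0.79), SLC25A6 (0.78), EEF1G (0.76) and EIF3M (0.75) were among the next. The gene annotated as NPAS2 had a mean of 4131 CPM. RPL31, which is not among the 79 members, is the second protein-coding gene listed after NPAS2 in the RefSeq table of another assembly (ARS-UCD2.0). Whether the counts under NPAS2 belong to that gene was not tested, so its level and r are uncertain.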

How the data were processed

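The authors aligned reads with Cell Ranger 6.0.1 to ARS-UCD1.2 (Ensembl annotation) and deposited raw UMI counts per gene and barcode, which were used here as counts. They assigned donors by demuxlet, kept cells within their quality limits and annotated cell types, and all cells of the deposited combined table are demuxlet singlets. The deposited cell tables also give a percent of mitochondrial UMIs and 10 further columns that were not used. No other doublet caller was run. Near-identical copies of RP genes can take or lose reads in this counting, so levels of RPS29, RPL10, RPS4X and RPS27 with their copies are uncertain.

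Counts of quality-controlled singlets were summed per donor, type and timepoint (at least 10 cells), giving 159 sums of which those compared held between 56121 and 32409007 UMIs. Groups came from the sample records and the donors' assignment to cultures in the design text. All genes were tested in edgeR 4.0.16 (R 4.3.3), by the quasi-likelihood F test, robust, with TMM factors and filterByExpr, and called at an adjusted p below 0.05 (Benjamini-Hochberg). Changes above 2-fold are log2FC beyond 1. Positions used a prior count of 2. Shares were compared by exact sign flips, with every sign pattern enumerated in Python 3.11.15 with numpy 2.4.6. Donors pair the timepoints because the same animals were sampled, and the test with the donor as a block was an alternative. DESeq2 1.42.0, library size alone, no low-count filter, at least 30 cells, equal depth, and leaving out single donors were others. The main edgeR test was run on simulated counts for some comparisons. That simulation left out the relative test and changed far fewer genes than were called from muscle to P0 in FAPs, SCs and VECs. Its outcome is not reported here. Donors were separate animals. Intervals cover counting error only, and 3 counts were taken as the limit that a count of 0 allows. The members, lists and tests were chosen with earlier results of these data known. Named genes were the 5 furthest above and below the members' median in FAPs, SCs and VECs, every member that departed, the 10 widest ranges, stalk and paralog genes, RPSA, RPS6, RPS27A and RPS4X, and in each other list the 2 largest changes in each direction. All donors of Timepoint 2 were taken as unsorted, as the protocol has it, although their records list sorted types as well. Some members and related genes that this rule names are not reported here.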

Additional observations from a re-analysis of the deposited data

Results flagged for a closer look

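Of 90 groups of 4 to 10 donors examined, 10 held a donor apart from the others by Dixon's 95% limit, where chance gives about 1 in 20. The groups reuse the same donor sums for several genes, so flags of 1 donor are not separate from each other. Donor 4 was highest in muscle for RPS15A (2300 CPM, next 1861), RPS25 (3175, next 2698), RPS18 (4284, next 3452) and RPL7A (3205, next 2609) in FAPs and for RPL26 (2885, next 2267) in VECs. Donor 1 was lowest for RPL3 in muscle FAPs (831.2 CPM, next 1077) and in SCs of Timepoint 2 (2020 CPM, next 2364). The RP share of donor 2 was highest in FAPs of Timepoint 3 (24.73%, next 22.73%) and over all cells of Timepoint 4 (26.27%, next 24.52%), and that of donor 6 was lowest in LECs of Timepoint 2 (20.97%, next 23.35%).

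The change of the RP share from Timepoint 1 to 2 differed between cell types in 5 pairs by the test of the difference itself. The difference was 8.43 points for FAPs minus SCs, 6.006 for FAPs minus macrophages, -7.957 for SCs minus VECs, -11.09 for SCs minus SMMCs and 5.806 for VECs minus macrophages.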

How the results depend on the processing

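Of 1347 recomputed values 1192 kept their direction and side of the threshold, or a count within 1.5 times. The log2FC of single members turned in 13 cases. The relative log2FC from muscle to the first culture was rerun only without TMM factors and with the donor as a block. It kept its sign in these runs, but only members already past the limits of a departure were entered, so a turn was unlikely. The relative test was not run without the low-count filter or at equal depth, so whether its signs hold there was not tested. The cause was not tested where values moved. Counts of members under an alternative stand without the share of all genes under that alternative. Each result at Timepoint 1 is limited by its depth, the lowest of the 5 libraries. At least 30 cells could not be fitted in macrophages and LECs. The share was also computed without barcodes found in more than 1 library, an alternative chosen after seeing the data, and no call changed with it.

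From Timepoint 1 to 2, the members called lower in FAPs numbered 14 without TMM factors and 16 at equal depth. Without the low-count filter SCs had 34 higher and 22 lower, VECs 7 lower, SMMCs 1 lower and LECs 25 higher and 8 lower. SMMCs had 8 lower at equal depth and 1 lower with at least 30 cells, and LECs 19 higher without TMM factors and 18 lower with the donor as replicate block. The median of the members turned to 0.0935 in SCs and 0.29 in LECs without the filter. RPS4X turned to 0.0846 in FAPs, 0.13 in VECs and 0.0754 in SMMCs, RPLP1 to 0.19 in VECs, 0.0462 in SMMCs and 0.31 in LECs, and in LECs RPS27A to 0.29 and RPS6 to 0.38, all without the filter. With the block RPS27A in LECs was 0.0181 and RPS6 0.18, RPS6 was 0.0031 by DESeq2 and 0.0485 without TMM factors, and RPS27L in SCs was -0.0336 at equal depth.

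From Timepoint 2 to 3, SCs had 5 lower without the filter. FAPs of FAP cultures had 3 higher and 28 lower without TMM factors, 11 lower without the filter and 3 higher with the block, and those of unsorted cultures 7 higher and 26 lower without TMM factors, with 0 higher and 4 lower departing when it was left out of the relative test. Leaving out single donors gave 1 to 2 higher and 0 to 3 lower in SCs, 0 to 3 and 2 to 9 in FAP cultures and 5 to 12 and 2 to 20 in unsorted cultures, and 1 to 2 lower departures in SCs, 0 to 1 higher and 1 to 4 lower in FAP cultures and 0 to 1 and 0 to 2 in unsorted cultures.

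From Timepoint 3 to 4, SCs had 1 higher by DESeq2, 1 lower without the filter and 0 lower at equal depth. FAP cultures had 24 higher by DESeq2, 30 with the block and 0 without TMM factors or filter, and unsorted cultures 17 by DESeq2 and 52 with the block. From 4 to 5, SCs had 1 higher and 29 lower by DESeq2, 8 lower with the block and 1 lower without the filter and at equal depth, with 1 higher departure under the block. FAP cultures had 46 lower by DESeq2, 57 with the block, 6 without the filter and 0 without TMM factors, and unsorted cultures 10 by DESeq2 and 4 with the block. From 3 to 5, SCs had 27 lower by DESeq2 and 0 lower departures with the block, and FAP cultures 4 lower with the block. Without single donors the counts were 0 to 0 for SCs from 3 to 4 and for FAP cultures from 3 to 4 and from 4 to 5, and 0 to 18 for unsorted cultures from 3 to 4. For SCs from 3 to 5 the count was 0 without donor 5. SC against FAP cultures gave 19 higher and 0 lower without TMM factors and 1 to 2 higher and 0 to 2 lower without single donors. Under the block RPS4X in FAPs (-0.23) and RPLP1 in SMMCs (-0.23) passed the threshold, RPS4X in SMMCs (-0.18) and LECs (-0.41) and RPS6 in macrophages (-0.20) did not, and RPL12 and RPL7 in SCs and RPL36A and RPL17 in SMMCs no longer departed. Among the members and counts given here, the block changed no other call beyond 1.5 times.

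With at least 30 cells the change of the RP share was 5.67 points in FAPs and 5.20 in VECs, no longer past the threshold. It was 0.191 in macrophages as a mean over cells, -0.443 in LECs without the 3 members with most UMIs and -0.141 in FAPs of unsorted cultures from Timepoint 3 to 5 without mitochondrially encoded genes. Without single donors it ran from -0.671 to 1.80 in LECs and from -0.505 to 0.756 in the latter, with -0.0363 without donor 9.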
